A study of Mus musculus with 24 samples.

Results

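The 40 genes described here encode the unfolded protein response and the integrated stress response, the programmes with which a cell answers misfolded protein in the endoplasmic reticulum (ER) and a shortage of amino acids. They were listed by name from knowledge of these pathways and are 40 of the 25160 genes in the count table; of a gene's transcripts, that with the highest mean count was used. They were kept in 3 sets. The Atf4 arm holds 12 genes (Atf4, Atf5, Ddit3, Ddit4, Trib3, Chac1, Sesn2, Asns, Psat1, Phgdh, Ppp1r15a and Nupr1), and the chaperone arm under Xbp1 and Atf6 holds 21 genes for folding and degradation in the ER. The other 7 are the sensor genes Eif2ak3, Eif2ak4, Ern1 and Atf6 with Xbp1, Eif2s1 and the phosphatase subunit gene Ppp1r15b. This set is called the sensors below for short. Of the 40 genes, 39 had enough counts to be tested. The exception was Derl3, a channel component for export of misfolded protein, which lay between 0 and 0.188 CPM (counts scaled to a fixed library total) in every library.

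RAW 264.7 is a mouse macrophage cell line. The study compared stable RAW 264.7 cells in which doxycycline induces the nuclear receptor Nur77, the product of Nr4a1, with cells in which it induces the green fluorescent protein GFP, and the series concerns Nur77 and genes controlled by AP-1 in macrophage inflammation. All cells, also those of the 0 h groups, received 50 ng/ml doxycycline for 18 h, and were then given 500 ng/ml of the bacterial product lipopolysaccharide (LPS) for 0, 1 or 5 h. Each of the 6 groups of line and time has 4 libraries, 24 in all, made from messenger RNA. No cells without doxycycline were analysed here and the labels do not say how many clones make up each line, so an effect of Nur77 and a lasting difference between the lines cannot be told apart. The labels do not say that the 4 libraries of a group came from separate cultures; p-values then measure only the spread between these libraries, which may be technical. In bulk samples, fewer cells of a type and less RNA per cell cannot be told apart.

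The ER membrane proteins Perk (gene Eif2ak3), Ire1 alpha (Ern1) and Atf6 sense unfolded protein. Perk, and the amino acid sensor Gcn2 (Eif2ak4), phosphorylate the translation factor eIF2 alpha (Eif2s1); this lowers protein synthesis in general but lets the transcription factor Atf4 be made, and Atf4 turns on genes of amino acid supply, redox control and cell death. Ire1 alpha splices the Xbp1 messenger into its active form, Atf6 is released from the membrane by cleavage, and both factors turn on the ER chaperones and the machinery that degrades misfolded protein. In macrophages, Toll-like receptors such as the LPS receptor are known to engage Ire1 alpha and Xbp1. Gene counts show neither phosphorylation, nor Xbp1 splicing, nor cleavage of Atf6, so what follows concerns RNA levels alone.

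Libraries held between 8137306 and 29279140 counts. The construct's gene, Nr4a1 (chromosome 15, 101253902 to 101274795, GRCm38), stood at 2.53 to 3.39 CPM in the GFP line and 2.74 to 3.71 CPM in the Nur77 line at 0 h, which differed by 0.09 on the log2 scale (SE 0.39, adjusted p = 0.885). What Nr4a1 sequence the construct carries is not stated, and its reads may or may not count towards the mouse gene, so Nr4a1 does not check the labels; "Nur77 line" below means the libraries labelled so. Replicate 2 of the Nur77 line at 1 h stood apart. The lowest correlation between libraries of its group was 0.976, against 0.988 or more in the other 5 groups. Replicate 2 lay at 11.6 on the first principal component where the other 3 lay between -11.4 and -10.2. It had 9.29 CPM of Nr4a1 where they had 39.8 to 42.4. Called values and counts at 1 h in the Nur77 line are therefore also given without it. It also enters the estimate of spread shared by all groups: without it 33 further values of members were called over the 9 comparisons, 27 of them in the 6 comparisons that do not use it. In that fit 3 calls were lost and 1 value changed sign. Of 15 macrophage marker genes 14 were above 1 CPM in every group. The summed level of the list was 10295 to 10516 CPM in the GFP line and 6694 to 7008 CPM in the Nur77 line at 0 h. Of 14 tested, 1 was called higher and 8 lower, or 64.3% against 39.8% of all tested genes. Lyz2 alone had means of 5646 and 2779 CPM in the GFP and Nur77 lines, whereas Csf1r had 450 and 547 and Spi1 146 and 144. The part of these marker differences in the results below was not tested. Epithelial markers were at 0 in all 6 genes, and the summed levels of the fibroblast, lymphocyte and neutrophil marker lists were at most 3.92, 0.547 and 4.64 CPM.

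Levels are given in CPM at the effective library sizes, as values for replicates 1 to 4, and differences as log2 fold changes; a gene is called when its adjusted p is under 0.05 among all 12213 genes tested. Compared per length of transcript, the chaperones were the most abundant members. In the GFP line at 0 h Hsp90b1 (Grp94, the ER form of Hsp90) stood at 484 CPM per kilobase, the calcium-binding chaperone Calr at 482, Hspa5 (BiP, the Hsp70 of the ER, which also keeps the sensors inactive) at 437 and the disulfide isomerase Pdia3 at 361. Atf4 followed at 263, Canx (calnexin) at 250 and Pdia6 at 227. The sensor kinases were the least abundant of the tested members, with Eif2ak4 at 9.85, Eif2ak3 at 8.04 and Ern1 at 6.29 CPM per kilobase. In the Nur77 line at 0 h Hspa5 came first, at 590, ahead of Hsp90b1 at 570 and Calr at 488.

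Before LPS, 20 of the 39 tested members were higher and 7 lower in the Nur77 line than in the GFP line, against a background of 39.8% of all tested genes called (20.2% higher, 19.7% lower); the median log2 difference of the members was 0.20 and of all genes 0.02. Most of the higher members belonged to the chaperone arm, with 13 of 20 higher, 2 lower and a median of 0.22. Among these 13, the calls of Canx and Pdia3 were each lost without any of 6 single libraries. Those of Edem1 and Derl1 were each lost without 1 single library. The Atf4 arm was divided, with 3 of 12 higher, 4 lower and a median of 0.15. Of the 7 sensors and regulators, 4 were higher and 1 lower, with a median of 0.16. Without replicate 2 of the Nur77 line at 1 h 24 members were higher and 8 lower, with 44.5% of all genes called.

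The chaperone arm differed most between the lines in Dnajc3, Herpud1 and Manf. Dnajc3 (chromosome 14, 118937932 to 118981702), which encodes the co-chaperone p58IPK, stood at 100, 101, 103 and 107 CPM in the GFP line and at 175, 182, 178 and 176 CPM in the Nur77 line at 0 h. Every Nur77 library was above every GFP library, and the same held at 1 and 5 h. The log2 difference was 0.79 at 0 h (SE 0.07, adjusted p = 4.72e-10), 0.98 at 1 h (adjusted p = 8.65e-12; 0.90 without replicate 2) and 0.97 at 5 h (adjusted p = 7.3e-12), a 1.73-fold, 1.97-fold and 1.96-fold higher level.

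Manf (chromosome 9, 106888753 to 106891938) encodes a secreted protein of the ER lumen that is released under ER stress. It stood at 124, 124, 117 and 132 CPM in the GFP line and at 190, 191, 201 and 187 CPM in the Nur77 line at 0 h. After 5 h of LPS it stood at 113, 111, 113 and 107 CPM in the GFP line and at 228, 226, 220 and 218 CPM in the Nur77 line, so that the lines lay further apart than at 0 h. Its log2 difference was 0.63 at 0 h (SE 0.08, adjusted p = 3.47e-07), 0.95 at 1 h (adjusted p = 3.21e-10; 0.81 without replicate 2) and 1.00 at 5 h (adjusted p = 8.64e-11). Manf shares 166 exon bases with a gene on the opposite strand, and whether the counting used the strand is not given in the sources used here.

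Herpud1 (chromosome 8, 94386429 to 94395371) encodes a membrane protein that gathers the degradation complex around misfolded protein. At 0 h it stood at 50.8, 54, 56.2 and 57.5 CPM in the GFP line and at 88.5, 85.8, 87.5 and 83.6 CPM in the Nur77 line. No library of one line reached those of the other at any of the 3 times. The log2 difference was 0.66 at 0 h (SE 0.06, adjusted p = 4.27e-10), 0.98 at 1 h (adjusted p = 1.06e-13; 0.99 without replicate 2) and 0.77 at 5 h (adjusted p = 8.74e-12).

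Hspa5 (chromosome 2, 34772090 to 34776529), the chaperone most used as a readout of the unfolded protein response, stood at 1188, 1109, 1142 and 1124 CPM in the GFP line and at 1559, 1490, 1568 and 1554 CPM in the Nur77 line at 0 h. At 5 h it stood at 1717, 1795, 1744 and 1744 CPM and at 2676, 2829, 2750 and 2722 CPM. The Nur77 libraries were higher at every time, with log2 differences of 0.44 at 0 h (SE 0.06, adjusted p = 4.9e-06), 0.50 at 1 h (adjusted p = 4.92e-07; 0.40 without replicate 2) and 0.65 at 5 h (adjusted p = 6.28e-09). Among its partners at 0 h, the nucleotide exchange factor Hyou1 was higher by a log2 difference of 0.34, the Hsp40 protein Dnajb11 by 0.21, Sdf2l1, which works with Dnajb11, by 0.36 and the disulfide isomerase-like Creld2 by 0.41. Sec61b, a subunit of the channel through which new proteins enter the ER, was higher by 0.39. Hsp90b1 (0.24, adjusted p = 0.0748), Calr (0.02), Pdia4 (0.14) and Pdia6 (-0.10) did not pass the test at 0 h. Without replicate 2 of the Nur77 line at 1 h Hsp90b1 (adjusted p = 0.00377) and Pdia4 (adjusted p = 0.0147) passed it at the same differences.

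Of the degradation genes besides Herpud1, Edem1, which recognises trimmed sugar chains, was higher by 0.18 and Derl1 by 0.25 at 0 h, and Syvn1, the ubiquitin ligase Hrd1, stood at 0.04 and was not called. Its partner Sel1l (chromosome 12, 91806043 to 91849157) went the other way: 338, 292, 345 and 305 CPM in the GFP line and 267, 254, 244 and 240 CPM in the Nur77 line at 0 h. Every Nur77 library was below every GFP library at 0 and at 5 h, while at 1 h replicate 2, at 349 CPM, was above all GFP libraries. The log2 difference of Sel1l was -0.35 at 0 h (adjusted p = 0.00589), -0.28 at 1 h (adjusted p = 0.0211; lost without replicate 1, 3 or 4 of the Nur77 line, and -0.44 with adjusted p = 8.13e-06 without replicate 2) and -0.50 at 5 h (SE 0.10, adjusted p = 0.000188). The other member of this arm that was lower at 0 h was Dnajb9, a co-chaperone that represses Ire1 alpha, at -0.41 (adjusted p = 0.00504).

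Both lie on chromosome 12, as do Pdia6 and Eif2s1, and most tested chromosome 12 genes were lower in the Nur77 line: of 435, 285 were lower, 14 higher and 136 not called at 0 h, with a median of -0.41. Of the 4 members on that chromosome, 0 were higher and 3 lower at 0 h, 0 and 1 at 1 h and 1 and 2 at 5 h. Of the 435 genes 17 were higher and 277 lower at 1 h, and 14 and 299 at 5 h. The higher member at 5 h was Dnajb9, by 0.31 (means of 25.1 against 20.4 CPM), a call lost without any of 4 single libraries. Without replicate 2 of the Nur77 line at 1 h, Sel1l (-0.44) and Eif2s1 (-0.23) were both called lower at 1 h. Of the 17 tested genes of the chaperone arm on other chromosomes, 13 were higher and 0 lower at 0 h, 14 and 0 at 1 h and 13 and 0 at 5 h. Of all tested genes 20.2%, 26.5% and 21.9% were higher and 19.7%, 24.8% and 24.4% lower at these times. Without replicate 2 the whole chaperone arm had 14 higher and 1 lower at 1 h, and the lower gene was Sel1l. The part of chromosome 12 in the values of these 4 members was not tested.

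**Figure D1:**
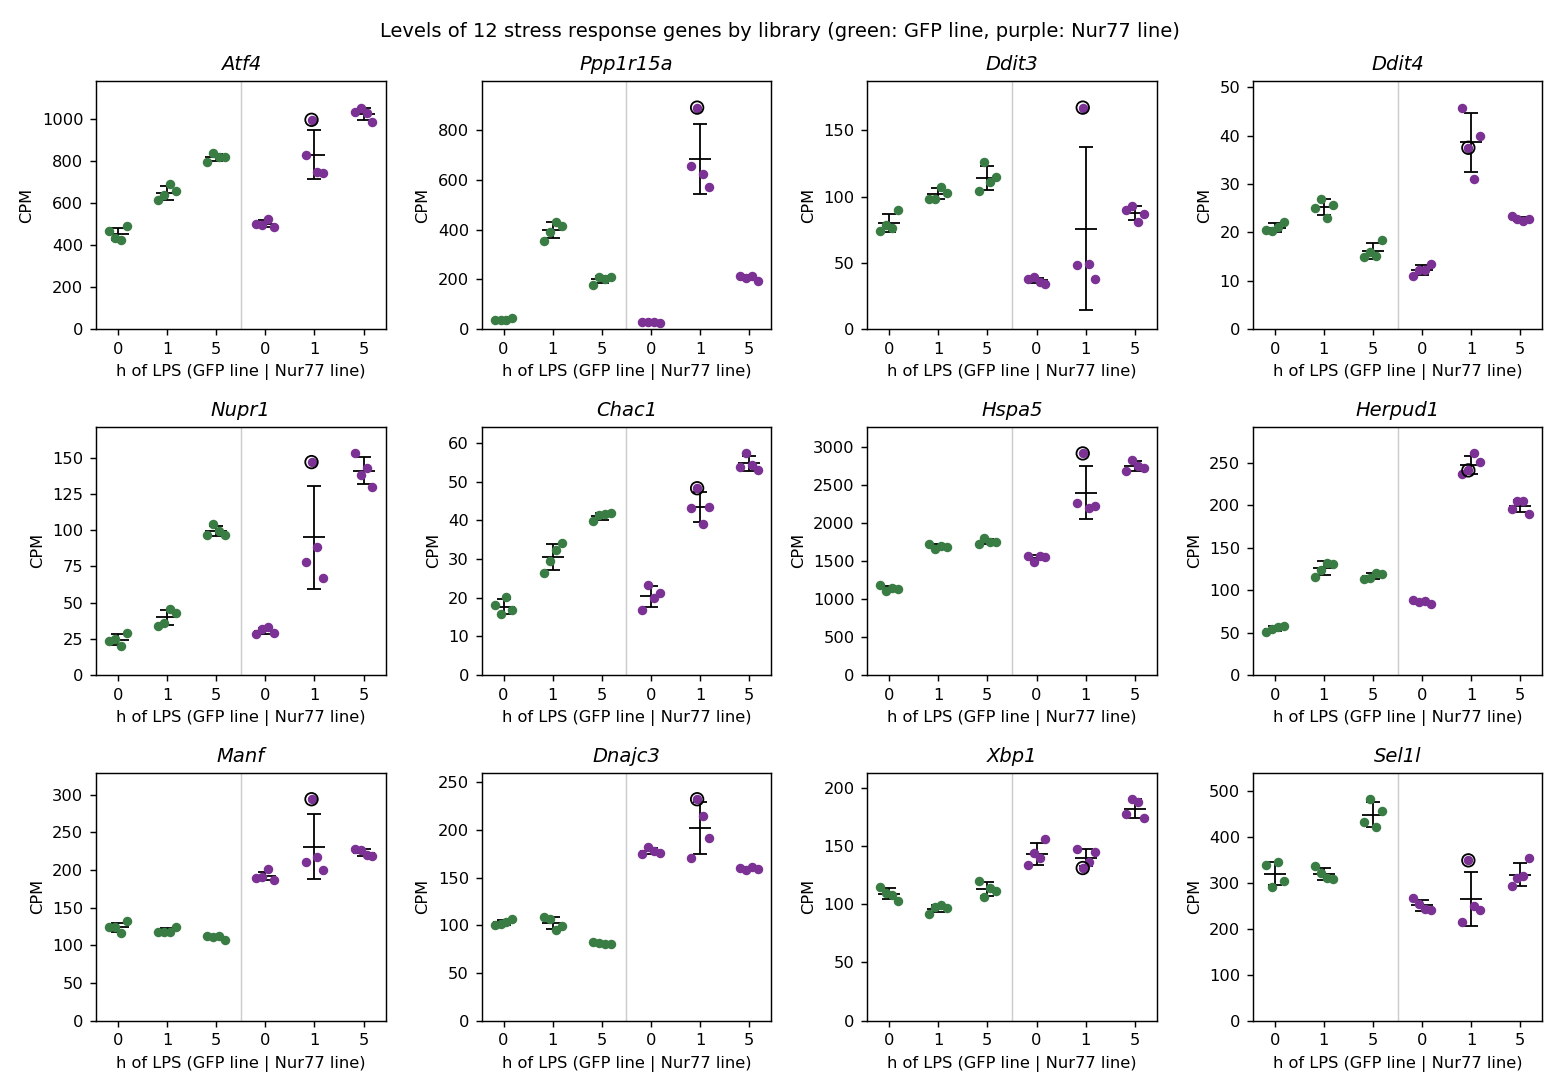
CPM in each library (points) for 12 members in the GFP and Nur77 lines at 0, 1 and 5 h of LPS, with the mean and SD of 4 libraries; replicate 2 of the Nur77 line at 1 h is circled. Dnajc3, Manf, Herpud1 and Hspa5 were higher in the Nur77 line at each time, Sel1l was lower at 0 and 5 h, and Ppp1r15a was highest at 1 h in both lines.

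The ER stress response element, to which Atf6 and Xbp1 bind together with NF-Y, reads CCAAT, any 9 bases, CCACG. In the 250 bases before the annotated start, searched on both strands, this exact element was found in 9 of the 18 chaperone arm promoters in the RefSeq promoter table (GRCm38.p6), in 0 of 12 of the Atf4 arm and in 0 of 5 of the sensors, against 37 of all 32851 promoters, or 0.113%. Promoters of 35 of the 40 members were in the table. The windows around the matches are shown because the element is shared by many genes of this arm. The arm was listed as genes under Xbp1 and Atf6, which bind the element, so its high share here is not an independent result. Each window is written 5′ to 3′ along the strand of the match, with the fixed letters of the element in capitals and 5 flanking bases on each side.
Hspa5 (gene strand, -65 to -47, chr2:34772020-34772048): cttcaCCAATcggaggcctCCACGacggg
Dnajc3 (gene strand, -105 to -87, chr14:118937822-118937850): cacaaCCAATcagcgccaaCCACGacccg
Hsp90b1 (gene strand, -212 to -194, chr10:86705633-86705661): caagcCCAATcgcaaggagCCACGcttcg
Hsp90b1 (opposite strand, -107 to -89, chr10:86705528-86705556): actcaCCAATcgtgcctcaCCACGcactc
Creld2 (opposite strand, -126 to -108, chr15:88819515-88819543): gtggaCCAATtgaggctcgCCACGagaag
Canx (gene strand, -145 to -127, chr11:50325795-50325823): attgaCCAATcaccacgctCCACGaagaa
Calr (opposite strand, -162 to -144, chr8:84847070-84847098): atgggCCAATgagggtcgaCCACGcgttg
Pdia6 (gene strand, -98 to -80, chr12:17266486-17266514): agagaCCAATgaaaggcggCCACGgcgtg
Syvn1 (gene strand, -44 to -26, chr19:6046527-6046555): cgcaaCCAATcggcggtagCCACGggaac
Derl3 (opposite strand, -156 to -138, chr10:75893237-75893265): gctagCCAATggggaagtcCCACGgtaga
The related element II, which reads ATTGG, any base, CCACG, was found in 1 member, Herpud1, and in 10 of all promoters (0.0304%). Its window, with the fixed letters in capitals, lies on the gene's strand at -52 to -42.
Herpud1 (chr8:94386372-94386392): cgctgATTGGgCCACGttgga
The 3 promoters of the chaperone arm below belong to the called members with the largest log2 change in any comparison of the lines or with LPS among those in the table. Each is the 250 bases before the start on the gene's strand, with the element in capitals.
Herpud1 (plus strand, chr8:94386179-94386428): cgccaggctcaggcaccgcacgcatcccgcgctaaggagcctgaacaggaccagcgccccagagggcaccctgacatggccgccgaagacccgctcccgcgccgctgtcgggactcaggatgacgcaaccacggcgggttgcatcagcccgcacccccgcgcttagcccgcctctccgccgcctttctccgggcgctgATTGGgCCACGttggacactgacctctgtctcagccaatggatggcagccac
Dnajc3 (plus strand, chr14:118937682-118937931): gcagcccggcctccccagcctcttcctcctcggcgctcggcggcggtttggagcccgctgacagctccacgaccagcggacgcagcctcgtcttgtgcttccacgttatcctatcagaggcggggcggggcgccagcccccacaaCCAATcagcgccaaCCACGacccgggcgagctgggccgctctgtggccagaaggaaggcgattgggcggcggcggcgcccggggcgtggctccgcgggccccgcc
Hspa5 (plus strand, chr2:34771840-34772089): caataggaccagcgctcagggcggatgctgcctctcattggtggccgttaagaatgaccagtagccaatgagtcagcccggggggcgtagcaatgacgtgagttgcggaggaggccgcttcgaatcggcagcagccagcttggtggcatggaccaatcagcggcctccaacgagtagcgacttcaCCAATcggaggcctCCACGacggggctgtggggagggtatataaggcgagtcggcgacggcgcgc
A match is a description of the letters and does not show that a factor was bound in these cells. The core TGACGTGG of the unfolded protein response element was in 0 members and in 0.563% of all promoters. Of the 9 tested genes with either element, 5 were higher and 0 lower in the Nur77 line at 0 h, with a median of 0.24. Of the 8 tested genes of the arm whose promoter held neither, 5 were higher and 2 lower, with a median of 0.20. Of all tested genes 20.2% were higher and 19.7% lower. The 2 lower genes, Dnajb9 and Sel1l, lie on chromosome 12, as does Pdia6, which holds an element. At 5 h the medians were 0.52 with and 0.30 without an element. The part of the element in these values was not tested.

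In the Atf4 arm the lines differed gene by gene at 0 h. Atf5, a transcription factor related to Atf4, was higher by 0.40 in the Nur77 line (adjusted p = 6.99e-06), asparagine synthetase Asns by 0.37 (adjusted p = 0.000681) and Psat1, an enzyme of serine synthesis, by 0.25 (adjusted p = 6.73e-05). Lower were Ddit3, Ddit4, Ppp1r15a and Sesn2. Atf4 itself, with 466, 432, 427 and 490 CPM in the GFP line and 503, 495, 524 and 486 CPM in the Nur77 line, differed by a log2 value of 0.15 and was not called (adjusted p = 0.105). In the fit that leaves out replicate 2 of the 1 h Nur77 libraries it was called at the same value (adjusted p = 0.0189).

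Ddit3 (chromosome 10, 127290793 to 127296291) encodes Chop, a transcription factor that promotes cell death after lasting ER stress. It stood at 74.2, 78.7, 76.5 and 89.6 CPM in the GFP line and at 37.8, 39.3, 35.4 and 34.4 CPM in the Nur77 line at 0 h. The groups did not overlap, and Ddit3 was 2.18-fold lower in the Nur77 line (log2 -1.12, SE 0.30, adjusted p = 0.00577). At 1 h the Nur77 line had 48.6, 167, 49.5 and 37.7 CPM, with replicate 2 above all GFP libraries and the other 3 below all of them. The log2 difference at 1 h was -0.43 with replicate 2 (adjusted p = 0.236) and -1.15 without it (adjusted p = 7.48e-12). At 5 h it was -0.38 (adjusted p = 0.303; 9.84e-05 in the fit without that library), with 80.8 to 92.5 CPM in the Nur77 line against 104 to 126 CPM. Ddit3 shares 68 exon bases with a neighbour on the opposite strand. Such overlaps were larger in other members, with 640 bases in Ppp1r15b, 485 in Eif2ak3, 415 in Hsp90b1, 91 in Syvn1 and 82 in Atf5.

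Ddit4 (Redd1, an inhibitor of the growth kinase mTORC1; chromosome 10, 59949675 to 59951770) changed sides with time. At 0 h it stood at 20.4, 20.2, 21.1 and 22.2 CPM in the GFP line and at 10.9, 12.2, 12.2 and 13.4 CPM in the Nur77 line, lower by a log2 difference of -0.79 (SE 0.10, adjusted p = 5.08e-07). At 1 h it stood at 25.1, 27, 23 and 25.7 CPM against 45.8, 37.5, 31 and 39.9 CPM, higher by 0.61 (adjusted p = 6.63e-06; 0.62 without replicate 2), and at 5 h at 15, 16, 15.2 and 18.5 CPM against 23.3, 22.8, 22.4 and 22.8 CPM, higher by 0.50 (adjusted p = 0.000113). The groups did not overlap at any of these times.

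Ppp1r15a (Gadd34, the phosphatase subunit that removes phosphate from eIF2 alpha; chromosome 7, 45522917 to 45526268) did the same up to 1 h. At 0 h it stood at 37.5, 38, 38.8 and 45.9 CPM in the GFP line and at 27.9, 28.7, 27.4 and 25.5 CPM in the Nur77 line, or -0.55 on the log2 scale (SE 0.11, adjusted p = 0.000174). At 1 h it stood at 355, 391, 430 and 416 CPM against 656, 891, 626 and 570 CPM, a log2 difference of 0.78 (SE 0.10, adjusted p = 3.73e-07), or 0.63 without replicate 2. At 5 h the groups overlapped, with 178 to 211 CPM against 194 to 214 CPM and a log2 difference of 0.05. Sesn2 (sestrin 2, an inhibitor of mTORC1) was lower at 0 h by -0.28, with overlapping groups and a call lost without replicate 1 or 2 of the GFP line, and higher at 5 h by 0.27.

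Nupr1 (a small stress-induced chromatin protein; chromosome 7, 126623246 to 126625470) was not called at 0 h, at 0.32 (it was without replicate 2 of the Nur77 line at 1 h, adjusted p = 0.0144). At 1 h it stood at 34.1, 36.2, 45.9 and 42.5 CPM in the GFP line and at 78, 147, 88.5 and 66.8 CPM in the Nur77 line, higher by 1.26 (SE 0.17, adjusted p = 1.9e-06) and, without replicate 2, by 0.97 (adjusted p = 2.71e-08). At 5 h it was higher by 0.51 (adjusted p = 0.011). Chac1, which degrades glutathione, was higher by 0.50 at 1 h (0.44 without replicate 2) and by 0.41 at 5 h, and Atf4 by 0.35 at 1 h (adjusted p = 0.000183; 0.25 without replicate 2) and 0.33 at 5 h (adjusted p = 0.00044). Phgdh, the enzyme before Psat1 in serine synthesis, passed the test at no time, with log2 differences from -0.04 to 0.15. Trib3, a pseudokinase that Atf4 and Chop turn on, had log2 differences of -0.30, 0.07 and 0.10 at 0, 1 and 5 h, none of which passed the test. Without replicate 2 its difference at 1 h was -0.24 (adjusted p = 0.0266), on the other side of 0, and that at 0 h, again -0.30, was called too (adjusted p = 0.00365).

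The promoters of the 3 Atf4 arm genes with the largest called change are shown for comparison with those of the chaperone arm. Capitals mark a cyclic AMP response element, TGACGTCA, in Ppp1r15a at -12 to -5, and the reverse complement of the element TGATGNAAT, at which Atf4 pairs with C/EBP factors, in Nupr1 at -111 to -103.
Ppp1r15a (minus strand, chr7:45526269-45526518): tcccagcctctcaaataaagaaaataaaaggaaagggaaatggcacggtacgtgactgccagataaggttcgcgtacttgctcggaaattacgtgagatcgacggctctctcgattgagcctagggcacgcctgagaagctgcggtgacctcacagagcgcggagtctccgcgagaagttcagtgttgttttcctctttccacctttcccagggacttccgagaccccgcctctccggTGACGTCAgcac
Nupr1 (minus strand, chr7:126625471-126625720): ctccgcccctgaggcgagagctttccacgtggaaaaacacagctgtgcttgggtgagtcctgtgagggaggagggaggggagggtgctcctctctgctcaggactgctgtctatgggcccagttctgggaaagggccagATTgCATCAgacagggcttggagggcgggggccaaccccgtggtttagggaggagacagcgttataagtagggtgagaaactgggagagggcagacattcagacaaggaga
Ddit4 (minus strand, chr10:59951771-59952020): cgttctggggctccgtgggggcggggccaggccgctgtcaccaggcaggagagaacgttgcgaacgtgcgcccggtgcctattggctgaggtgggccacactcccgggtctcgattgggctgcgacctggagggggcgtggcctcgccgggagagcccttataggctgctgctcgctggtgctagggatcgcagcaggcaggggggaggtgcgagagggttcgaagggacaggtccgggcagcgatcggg
The Ddit4 promoter held no match to any of the 5 elements searched, and no member held more than 1 kind of element. Each of the elements marked here was found in 1 of the 12 Atf4 arm promoters; TGATGNAAT was in 0.816% and TGACGTCA in 1.55% of all promoters of this length.

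After 1 h of LPS 24 of the 39 members were higher and 1 lower in the Nur77 line than in the GFP line at the same time, against a background of 51.2% called (26.5% higher, 24.8% lower); the members' median was 0.37. The Atf4 arm had 8 of 12 higher and 0 lower (median 0.43), the chaperone arm 14 of 20 higher and 1 lower (median 0.40) and the sensors 2 of 7 higher and 0 lower (median -0.00). Without replicate 2 the members stood at 25 higher and 5 lower with a median of 0.26, the Atf4 arm at 8 higher and 2 lower (median 0.32) the chaperone arm at 14 higher and 1 lower (median 0.32) and the sensors at 3 higher and 2 lower (median 0.11), with 50.9% of all genes called. At 5 h 24 members were higher and 2 lower, with 46.4% of all genes called, 21.9% higher and 24.4% lower, and a median of 0.28. These were 6 higher and 0 lower in the Atf4 arm (median 0.20), 14 higher and 1 lower in the chaperone arm (median 0.36) and 4 higher and 1 lower among the sensors (median 0.22). At 1 h Hsp90b1 was higher in the Nur77 line by 0.67, the disulfide isomerases Pdia4 by 0.47 and Pdia3 by 0.46, and the lectin chaperones Canx by 0.38 and Calr by 0.37. Without replicate 2 these were 0.50, 0.24, 0.36, 0.35 and 0.26, all called. Pdia6 was not called at 1 h, at 0.09. Syvn1 differed first at 5 h, by 0.52 (adjusted p = 3.72e-07), with 33 to 34.5 CPM in the GFP line and 44.1 to 52 CPM in the Nur77 line.

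Of the set of sensors and regulators, Xbp1 (chromosome 11, 5520641 to 5525993) differed most. It stood at 115, 110, 108 and 103 CPM in the GFP line and at 134, 144, 140 and 156 CPM in the Nur77 line at 0 h, and at 120, 106, 114 and 111 CPM against 177, 190, 188 and 174 CPM at 5 h. The groups were apart at each time, with log2 differences of 0.40 (SE 0.06, adjusted p = 3.46e-06), 0.54 (adjusted p = 3.09e-08; 0.56 without replicate 2) and 0.69 (adjusted p = 2.5e-10) at 0, 1 and 5 h. Atf6 was higher by 0.35, 0.37 and 0.23 at these times; at 1 h its groups overlapped and its difference without replicate 2 was 0.24. Eif2ak3 was higher at 0 h (0.23, adjusted p = 0.00515) and had differences of -0.02 and 0.11 at 1 and 5 h, and Ern1 did not pass the test at any time (-0.07, -0.25 and -0.20) although without replicate 2 it was lower at 1 h by -0.41. Eif2s1 was lower at 0 h (-0.37, adjusted p = 0.000326) and 5 h (-0.26), and lies on chromosome 12. Ppp1r15b, the constitutive counterpart of Ppp1r15a, was higher at 0 h by 0.16 and at 5 h by 0.22. Eif2ak4 was higher at 5 h by 0.25. The calls of Eif2ak4 and of Atf6 at 5 h were each lost without any of 5 single libraries, and that of Ppp1r15b at 0 h without any of 4.

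**Figure D2:**
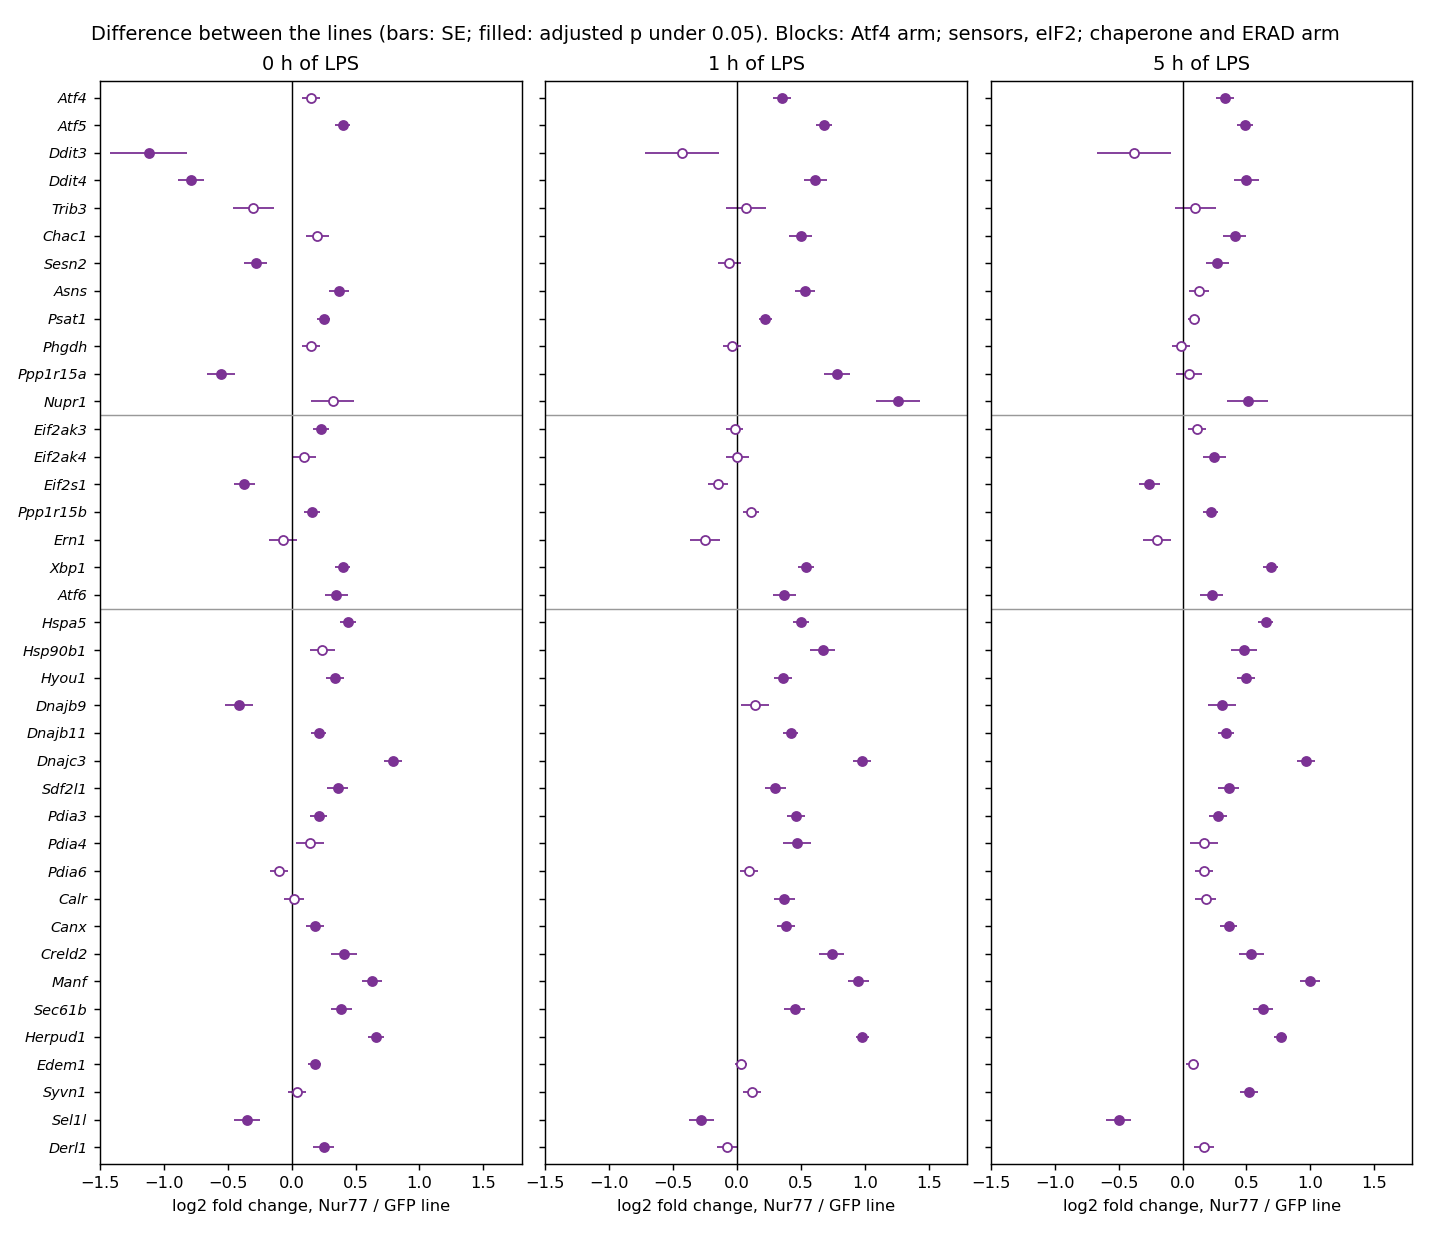
Log2 fold change of the Nur77 line over the GFP line for the 39 tested members at 0, 1 and 5 h of LPS, by gene set; bars are SE and filled points are called at an adjusted p under 0.05. Dnajc3, Manf and Herpud1 lie to the right at every time, and Ddit3, Ddit4 and Ppp1r15a lie to the left at 0 h.

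The response to LPS was measured within each line against its own 0 h libraries; the 1 h and 5 h comparisons of a line share those libraries. In the GFP line at 1 h 9 members rose and 3 fell, against a background of 17.4% called (9.74% higher, 7.63% lower). In the Nur77 line at 1 h 24 rose and 3 fell, against a background of 44.3% called (22.5% higher, 21.8% lower); without replicate 2 these were 21 and 4, with 38.2% called. At 5 h 14 rose and 10 fell in the GFP line, 61.5% of the members against 62.6% of all genes (30.6% higher, 31.9% lower). At 5 h 19 rose and 6 fell in the Nur77 line, 64.1% of the members against 66.6% of all genes (32.5% higher, 34.1% lower). In the fit without replicate 2 of the Nur77 line at 1 h, 13 rose and 3 fell at 1 h in the GFP line (41% against 21.5% of all genes). At 5 h 16 rose and 14 fell in the GFP line (76.9% against 65.2%) and 20 rose and 7 fell in the Nur77 line (69.2% against 68.6%).

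In the GFP line 5 of 12 genes of the Atf4 arm rose and 0 fell at 1 h, with a median log2 change of 0.31, and 9 rose and 1 fell at 5 h, with a median of 0.75. In the chaperone arm 2 of 20 rose and 1 fell at 1 h (median 0.00), and 3 rose and 7 fell at 5 h (median -0.14). Of all genes in the GFP line 9.74% rose and 7.63% fell at 1 h, and 30.6% rose and 31.9% fell at 5 h. Of the Atf4 arm in the Nur77 line, 10 genes rose and 0 fell at 1 h (median 0.76) and again at 5 h (median 1.11). In the chaperone arm of that line 12 rose and 1 fell at 1 h (median 0.23), and 6 rose and 4 fell at 5 h (median 0.09). Of all genes in the Nur77 line 22.5% rose and 21.8% fell at 1 h, and 32.5% rose and 34.1% fell at 5 h. Without replicate 2 the counts at 1 h in the Nur77 line were 10 and 1 in the Atf4 arm (median 0.51) and 9 and 1 in the chaperone arm (median 0.09). Of all genes 19.1% then rose and 19% fell. The same fit gave 9 risen and 0 fallen in the Atf4 arm of the GFP line at 1 h, and 3 risen and 11 fallen in its chaperone arm at 5 h. Of all genes in that fit and line 11.9% rose and 9.64% fell at 1 h, and 32.1% and 33.1% at 5 h. The median of all genes lay between -0.03 and -0.01 in these comparisons.

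Ppp1r15a rose the most of all members. From the levels given above it rose 9.92-fold in the GFP line (log2 3.31, SE 0.11, adjusted p = 1.13e-18) and 25.07-fold in the Nur77 line at 1 h (log2 4.65, SE 0.12, adjusted p = 2.6e-21; 4.50 without replicate 2). At 5 h it was 4.97-fold (adjusted p = 4.27e-16) and 7.57-fold (adjusted p = 7.94e-18) above 0 h. All libraries after LPS were above all libraries at 0 h.

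Nupr1 rose later. In the GFP line it stood at 23.8, 24.8, 20.1 and 29.2 CPM at 0 h and at 97, 104, 99.3 and 96.6 CPM at 5 h, and in the Nur77 line at 28.3, 32, 32.9 and 28.9 CPM and at 153, 138, 143 and 130 CPM. It rose by 0.70 at 1 h and 2.02 at 5 h in the GFP line (adjusted p = 0.00532 and 5.76e-10) and by 1.64 at 1 h and 2.21 at 5 h in the Nur77 line (adjusted p = 6.12e-08 and 1.15e-10); without replicate 2 the 1 h value of the Nur77 line was 1.35. The 5 h libraries did not overlap those at 0 h in either line.

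Atf4 (chromosome 15, 80255184 to 80257545) rose to 614, 638, 692 and 657 CPM at 1 h and to 796, 837, 820 and 822 CPM at 5 h in the GFP line. In the Nur77 line it rose to 829, 997, 750 and 746 CPM at 1 h and to 1036, 1055, 1028 and 986 CPM at 5 h. In the GFP line each later time stood above the earlier one without overlap; in the Nur77 line replicate 2 at 1 h reached into the range of 5 h. The log2 changes against 0 h were 0.52 (adjusted p = 3.01e-06) and 0.85 (adjusted p = 8.83e-11) in the GFP line and 0.73 (adjusted p = 6.53e-09; 0.63 without replicate 2) and 1.03 (adjusted p = 2.06e-12) in the Nur77 line.

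Chac1 rose by 0.79 and 1.21 in the GFP line and by 1.09 and 1.42 in the Nur77 line at 1 and 5 h, Sesn2 by 0.57 and 0.72 and by 0.80 and 1.27. Without replicate 2 the 1 h values of the Nur77 line were 1.03 and 0.74. Trib3 rose at 5 h by 0.79 in the GFP line and by 1.19 in the Nur77 line. Asns rose at 5 h by 0.85 and 0.61. Ddit3 rose in the Nur77 line by 1.04 at 1 h (adjusted p = 0.00932; 0.32, adjusted p = 0.0043, without replicate 2) and 1.26 at 5 h (adjusted p = 0.00122), against 0.35 and 0.51 in the GFP line, which did not pass the test; the difference between the lines did not pass it either (0.69 and 0.74, adjusted p = 0.364 and 0.33). Without replicate 2 both values of the GFP line passed it, at 0.35 (adjusted p = 0.000822) and 0.51 (adjusted p = 7.4e-07). The difference between the lines was then -0.03 at 1 h and 0.74 at 5 h, the latter called (adjusted p = 1.43e-05). The serine synthesis gene Psat1 passed in neither line at either time, with values from -0.10 to 0.06. Phgdh rose in the GFP line at 5 h by 0.18, a call lost without any of 3 single libraries. Ddit4 was the member of this arm that fell, in the GFP line at 5 h (-0.38, adjusted p = 0.00109), while in the Nur77 line it rose by 1.66 at 1 h (adjusted p = 3.4e-13; 1.67 without replicate 2) and 0.90 at 5 h (adjusted p = 1.48e-08).

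In the chaperone arm Herpud1 and Hspa5 rose in both lines at both times. Herpud1 rose to 115, 124, 132 and 131 CPM at 1 h in the GFP line and to 237, 241, 261 and 251 CPM in the Nur77 line. These are 2.30-fold (log2 1.20, SE 0.06, adjusted p = 1.74e-15) and 2.87-fold rises (log2 1.52, SE 0.05, adjusted p = 8.16e-18; 1.53 without replicate 2), with no overlap with 0 h. Hspa5 rose to 1724, 1657, 1700 and 1683 CPM at 1 h in the GFP line (log2 0.57, adjusted p = 1.34e-07) and to 2259, 2912, 2198 and 2216 CPM in the Nur77 line (log2 0.64, adjusted p = 1.26e-08; 0.53 without replicate 2).

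Apart from these, no gene of the chaperone arm rose at 1 h in the GFP line, and Syvn1 fell by -0.21 (adjusted p = 0.0249). At 5 h Sel1l rose by 0.49 (adjusted p = 0.000126), from 292 to 345 CPM at 0 h to 421 to 482 CPM, and 7 genes fell: Dnajb9 (-0.57), Sdf2l1 (-0.56), Pdia4 (-0.40), Sec61b (-0.35), Dnajc3 (-0.34), Edem1 (-0.29) and Syvn1 (-0.23). Hyou1, Dnajb11, Creld2, Hsp90b1, Canx and Calr did not pass the test at either time in that line, with values from -0.15 to 0.06. In the Nur77 line at 1 h Dnajb9 rose by 0.66 (adjusted p = 4.37e-05), and Hsp90b1 by 0.46, Calr by 0.32, Manf by 0.26, Canx by 0.26, Creld2 by 0.26, Pdia3 by 0.25, Dnajb11 by 0.21, Pdia6 by 0.20 and Dnajc3 by 0.18, while Derl1 fell by -0.22. Without replicate 2 Dnajb9 was at 0.59, Hsp90b1 at 0.28, Canx at 0.23, Calr at 0.21, Pdia3 and Dnajb11 at 0.15, Manf at 0.13 and Derl1 at -0.24, all called. Creld2, Dnajc3 and Pdia6 then did not pass the test, at 0.07, 0.11 and 0.07. Manf, Creld2, Dnajc3 and Derl1 overlapped with 0 h. At 5 h in the Nur77 line Sdf2l1 (-0.57), Edem1 (-0.39), Pdia4 (-0.38) and Dnajc3 (-0.16) fell, and Sel1l (0.34), Syvn1 (0.25), Manf (0.21) and Canx (0.18) rose. Among these calls, that of Syvn1 at 1 h in the GFP line was lost without any of 4 single libraries, that of Dnajc3 at 5 h in the Nur77 line without any of 7, that of Canx without either of 2, and those of Creld2 and Derl1 at 1 h without any of 4 each.

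Of the sensors, Eif2ak3 fell in both lines. It stood at 37.2, 36.4, 37.4 and 34.2 CPM at 0 h and at 21.1, 21, 19.8 and 22.6 CPM at 5 h in the GFP line, and at 44.1, 44.4, 41.3 and 41 CPM and 22.9, 22.7, 21.8 and 23.5 CPM in the Nur77 line. The log2 changes at 1 and 5 h were -0.31 (adjusted p = 0.00112) and -0.78 (adjusted p = 1.29e-10) in the GFP line and -0.56 (adjusted p = 1.4e-07; -0.50 without replicate 2) and -0.91 (adjusted p = 8e-12) in the Nur77 line. At 5 h Eif2ak4 fell by -0.57 in the GFP line and -0.42 in the Nur77 line, Eif2s1 rose by 0.52 and 0.64 and Ppp1r15b by 0.46 and 0.51. Xbp1 rose at 5 h in the Nur77 line by 0.34 (adjusted p = 8.82e-06) and had a change of 0.05 in the GFP line (adjusted p = 0.443). At 1 h Xbp1 was called lower in the GFP line, a call lost without any of 6 single libraries. Ern1 was called lower at 1 h in the Nur77 line, a call lost without any of 7. In the fit without replicate 2 of the Nur77 line at 1 h these were -0.18 (adjusted p = 0.0195) and -0.45 (adjusted p = 0.000535). Atf6 passed the test in neither line, with changes from 0.01 to 0.14.

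**Figure D3:**
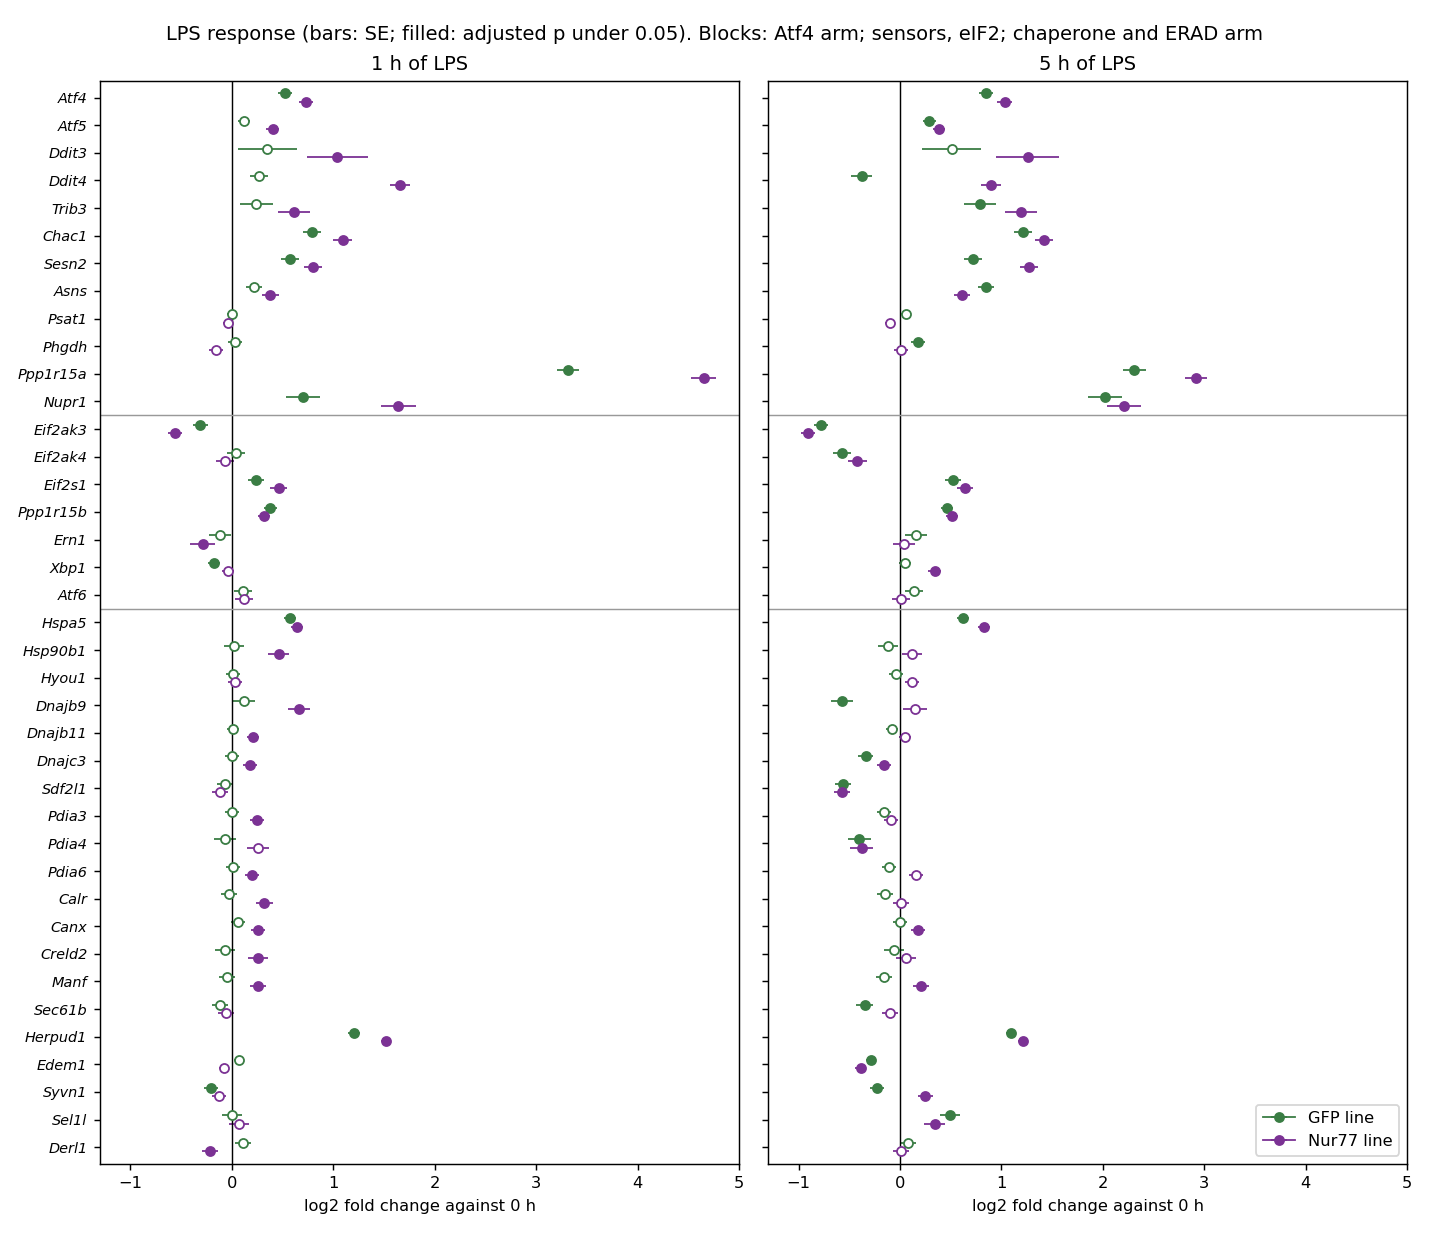
Log2 fold change of the 39 tested members after 1 h and 5 h of LPS against 0 h in the GFP line and in the Nur77 line, by gene set, with SE bars and filled points where called. Ppp1r15a reaches 3.31 and 4.65 at 1 h, and in the chaperone arm of the GFP line Herpud1 and Hspa5 alone lie clearly to the right at 1 h.

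The difference between the lines in the response to LPS was tested as an interaction. At 1 h 3 of 39 members were called, all with the larger rise in the Nur77 line, where 1.18% of all genes were called, 0.63% of them in that direction and 0.549% in the other. They were Ddit4 (log2 1.39, SE 0.14, adjusted p = 5.9e-07), Ppp1r15a (1.34, SE 0.14, adjusted p = 3.35e-06) and Herpud1 (0.32, SE 0.08, adjusted p = 0.0405). Without replicate 2 Ddit4 was at 1.40, Ppp1r15a at 1.19 and Herpud1 at 0.33 (adjusted p = 0.0179), and Nupr1 was called too at 0.65 (adjusted p = 0.0177), with 1.79% of all genes called; with it, Nupr1 was at 0.94 (adjusted p = 0.0555). Leaving out replicate 1 or replicate 4 of the Nur77 line at 1 h raised the count from 3 to 13 and 9, for a reason that was not tested. The share of all genes called in those fits is not given here, so the rise may not be particular to the members. For Ddit4 and Ppp1r15a the larger rise started from a lower level at 0 h, as given above, whereas Herpud1 started from a higher one.

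At 5 h 7 members were called, all with a positive difference (the log2 change in the Nur77 line minus that in the GFP line), where 7.94% of all genes were called, 2.81% in that direction and 5.13% in the other. They were Ddit4 (1.29, adjusted p = 4.14e-07), Dnajb9 (0.72, adjusted p = 0.00494), Ppp1r15a (0.61, adjusted p = 0.00861), Sesn2 (0.55, adjusted p = 0.00811), Syvn1 (0.48, adjusted p = 0.00126), Manf (0.37, adjusted p = 0.0365) and Xbp1 (0.29, adjusted p = 0.0234). Leaving out replicate 2 of the Nur77 line at 1 h, which is not part of this comparison but enters the shared estimate of spread, raised the count to 12, 11 positive and Asns negative (-0.24, adjusted p = 0.0162), with 13.6% of all genes called. The sign covers different courses. Ppp1r15a and Sesn2 rose in both lines. Ddit4 and Syvn1 (-0.23 and 0.25) fell in the GFP line and rose in the Nur77 line. Dnajb9 fell by -0.57 in the GFP line and was not called in the Nur77 line (0.15). Manf and Xbp1 rose in the Nur77 line and were not called in the GFP line. The call of Manf was lost without any of 12 single libraries and that of Xbp1 without any of 4; at 1 h that of Herpud1 was lost without any of 9. Hspa5, which rose in both lines, had interactions of 0.07 and 0.21 that did not pass the test (adjusted p = 0.703 and 0.162). Without replicate 2 they were -0.04 and 0.21, the latter called (adjusted p = 0.00514).

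The medians of the arms lay further apart in the response to LPS than between the lines. The median log2 change of the chaperone arm minus that of the Atf4 arm was 0.08, -0.03 and 0.16 for the Nur77 line over the GFP line at 0, 1 and 5 h. For LPS it was -0.30 at 1 h and -0.89 at 5 h in the GFP line, and -0.53 at 1 h and -1.02 at 5 h in the Nur77 line; without replicate 2 the 1 h value of the Nur77 line was -0.42. No test over the genes of an arm was made. The position of each library, the median over an arm of log2(CPM + 0.5) relative to the mean of the GFP line at 0 h, showed the same. In the Atf4 arm the GFP libraries lay at 0.29 to 0.35 at 1 h and 0.67 to 0.80 at 5 h, and the Nur77 libraries at 0.04 to 0.17 at 0 h, 0.56 to 0.73 at 1 h besides replicate 2 at 1.02, and 0.81 to 1.00 at 5 h. In the chaperone arm the GFP libraries lay at -0.02 to 0.04 at 1 h and -0.15 to -0.10 at 5 h, and the Nur77 libraries at 0.21 to 0.25 at 0 h, 0.28 to 0.42 at 1 h besides replicate 2 at 0.59, and 0.18 to 0.31 at 5 h. The Nur77 libraries were thus above all GFP libraries of the same time in the chaperone arm at 0, 1 and 5 h.

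**Figure D4:**
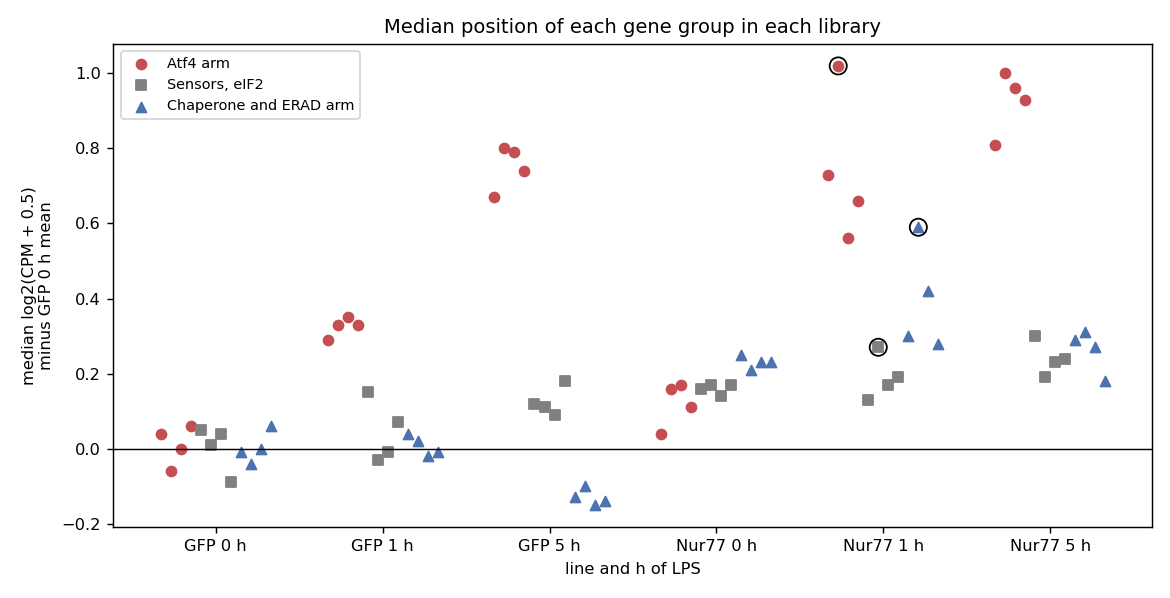
Median over each gene set of log2(CPM + 0.5) in a library minus the mean of the GFP line at 0 h, for the 24 libraries by line and time of LPS. The Atf4 arm climbs with LPS in both lines to 0.67 or more at 5 h, while the chaperone arm lies between -0.15 and 0.04 after LPS in the GFP line and at 0.18 or more in the Nur77 line.

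Many of the stress response genes were high in replicate 2 of the Nur77 line at 1 h. It lay above the other 3 libraries of its group in 27 of 39 members, against 33.5% of all tested genes, with a median ratio to their mean of 1.22 (0.995 over all genes). This held for 10 of 12 genes of the Atf4 arm, 14 of 20 of the chaperone arm and 3 of 7 sensors, of which the other 4 were below. Ddit3 stood at 167 CPM against a mean of 45.3, a ratio of 3.69, Trib3 at 142 against 72, Nupr1 at 147 against 77.7, Pdia4 at 429 against 253, Creld2 at 105 against 66.2 and Hsp90b1 at 2983 against 1954. Eif2ak4 stood at 39.1 against 56.9. Herpud1, at 241 CPM, lay within the range of the other 3, 237 to 261. Replicate 2 held 16139091 counts, within the 11106896 to 23778402 of the other 3. The part of this library's depth or RNA in these values was not tested.

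**Figure D5:**
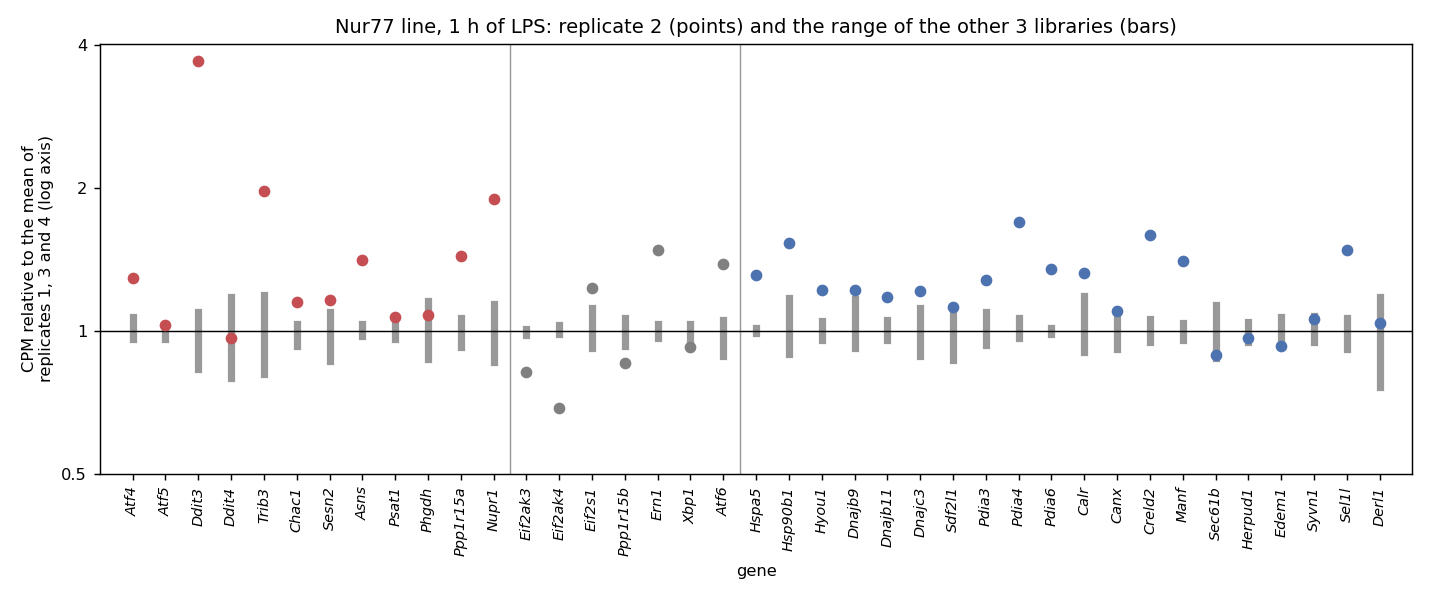
CPM of replicate 2 of the Nur77 line at 1 h relative to the mean of the other 3 libraries of its group, for the 39 tested members (points, log axis), with the range of the other 3 as bars. Ddit3 has the highest ratio, 3.69, and Eif2ak4 a ratio of 0.687.

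Other genes of the same pathways, listed by function, followed their arm in part. Of 33 further Atf4 targets and genes of amino acid supply, 27 rose and 2 fell at 5 h of LPS in the GFP line (median 0.71) and 23 rose and 6 fell in the Nur77 line (median 0.64), 87.9% called in each line against 62.6% and 66.6% of all genes. At 1 h 12 rose and 0 fell in the GFP line (36.4% against 17.4%) and 19 rose and 3 fell in the Nur77 line (66.7% against 44.3%; 18 and 6 without replicate 2). Atf3, a stress transcription factor of the Atf family, rose by 2.39 and 2.72 at 1 h in the GFP and Nur77 lines (2.82 without replicate 2). Gadd45b, a growth arrest gene, rose by 2.60 and 3.15 (3.37). Between the lines this list was divided at 0 h, with 11 higher and 10 lower (63.6% against 39.8% of all genes) and a median of 0.04. Pycr1, of proline synthesis, was higher in the Nur77 line by 1.21 and the amino acid transporter gene Slc7a5 by 0.74, whereas Atf3 was lower by -1.44 and Ndrg1 by -1.25. At 5 h 10 were higher and 12 lower (66.7% against 46.4%), with Atf3 at -1.74. Of 20 tRNA synthetases, 16 rose and 1 fell at 5 h in the GFP line and 17 rose and 1 fell in the Nur77 line (85% and 90%), with Tars, which charges threonine, at 0.73 and 0.87.

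Of 38 further ER folding genes, 14 were higher and 7 lower in the Nur77 line at 0 h (median 0.17), 17 and 4 at 1 h (15 and 4 without replicate 2) and 17 and 9 at 5 h. The shares called were 55.3%, 55.3% and 68.4%, against 39.8%, 51.2% and 46.4% of all genes. Dnajc10, a reductase of the ER, was higher by 0.58 at 0 h, while the oxidase Ero1a, which supplies disulfide bonds, was lower by -1.15 at 0 h and -1.54 at 5 h, and P4hb, the classic disulfide isomerase, was lower by -0.40 at 0 h. With LPS in the GFP line 0 of the 38 were called at 1 h, and 7 rose and 11 fell at 5 h (median -0.09); in the Nur77 line 10 rose and 11 fell at 5 h. These shares at 5 h, 47.4% and 55.3%, were below the 62.6% and 66.6% of all genes. Ero1a rose at 5 h by 1.54 and 1.14 and Erp29, a lumenal chaperone, fell by -1.09 and -1.15 in the GFP and Nur77 lines. Of 28 further degradation genes, 3 were higher and 1 lower in the Nur77 line at 0 h, 9 and 5 at 1 h (8 and 4 without replicate 2) and 7 and 2 at 5 h, or 14.3%, 50% and 32.1% called, below the shares of all genes at each time. Selenos, which recruits the extraction ATPase to the ER membrane, was higher by 0.53, 0.76 (0.67 without replicate 2) and 0.94 at these times. At 5 h of LPS 11 rose and 3 fell in the GFP line and 14 rose and 2 fell in the Nur77 line, 50% and 57.1%, again below the shares of all genes.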

How the data were processed

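RNA from 24 libraries was counted per transcript. The authors deposited 1 table of raw estimated counts, with values in multiples of 0.5; per the submitters' processing notes CASAVA 1.8.2 and HISAT2 2.1.0 were used with the mm10 build, while how reads were assigned to transcripts, whether by strand, and from which annotation is not stated there. Counts were rounded to whole numbers. Of 42361 transcripts, 42203 were matched to gene symbols by the RefSeq table of GRCm38.p6, 65 by GENCODE, and 93 kept their own identifier, which gave 25160 genes, of which the transcript with the highest mean was used.

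Genes were filtered with filterByExpr (12213 kept), scaled by TMM (factors 0.896 to 1.14) and tested with edgeR 4.0.16 (limma 3.58.1, R 4.3.3), a quasi-likelihood fit of 6 group means over 24 libraries with 18 residual degrees of freedom; p-values were adjusted over all tested genes by the Benjamini-Hochberg method and called under 0.05. The biological coefficient of variation was 0.0978. On simulated counts for the Nur77 and GFP lines at 0 h (12046 genes) the script recovered 96% of 50 genes changed 1.5-fold and 100% of those changed 2-fold, with 8 false calls. Promoter motifs were searched on both strands in the 250 bases before each start in the RefSeq table.

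The members and lists were chosen with earlier results of these data known, so no test over a list was made. All members are described, in full where groups differ most; of each other list, up to 3 called genes per direction and comparison with at least 10 CPM and the largest change could be named. Alternatives were DESeq2 1.42.0, its size factors, other filters, the mean over transcripts, a fit of only the groups compared, the replicate number as a block, and each library left out.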

Additional observations from a re-analysis of the deposited data

Results flagged for a closer look

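The spread within groups was examined gene by gene in the 6 groups of 4 libraries, and in 25 of 234 such sets of values 1 library lay far from the other 3; chance alone gives about 1 in 20. Of the 25, 8 were replicate 2 of the Nur77 line at 1 h: Ddit3 at 167, Asns at 557, Ern1 at 44.8, Hspa5 at 2912, Pdia4 at 429 and Pdia6 at 657 CPM stood above the other libraries, and Eif2ak3 at 24.7 and Eif2ak4 at 39.1 CPM below them. In replicate 4 of the GFP line at 0 h Ppp1r15a at 45.9, Hsp90b1 at 1543, Pdia3 at 1114 and Canx at 1203 CPM were high, and Trib3 at 64.8 and Sesn2 at 41.6 CPM were low. In the GFP line at 1 h Ern1 at 48 CPM was high and Pdia4 at 194 CPM low in replicate 1, and Manf at 124 CPM was high and Dnajb11 at 200 CPM low in replicate 4. Ern1 stood at 54.5 CPM in replicate 4 of the GFP line at 5 h. In the Nur77 line at 0 h Atf6 was high in replicate 1 at 373 CPM, Sdf2l1 and Pdia6 in replicate 3 at 103 and 476 CPM, and Sec61b was low in replicate 4 at 59.4 CPM. In replicate 1 of the Nur77 line at 5 h Hsp90b1 at 1886 and Pdia3 at 1146 CPM were high.

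The response to LPS differed between the lines by the test of the difference itself in 10 values. At 1 h these were Ddit4 at 1.39, Ppp1r15a at 1.34 and Herpud1 at 0.32 on the log2 scale, as the change in the Nur77 line minus that in the GFP line. At 5 h they were Ddit4 at 1.29, Dnajb9 at 0.72, Ppp1r15a at 0.61, Sesn2 at 0.55, Syvn1 at 0.48, Manf at 0.37 and Xbp1 at 0.29.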

How the results depend on the processing

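Of the 176 calls of members over 9 comparisons, 146 were lost under no alternative, and 3 were lost without replicate 2 of the Nur77 line at 1 h, which also brought 33 further calls and 1 change of sign. The replicate number used as a block left 174 calls, with 2 lost (Ern1 at 1 h in the Nur77 line and Xbp1 at 1 h in the GFP line) and 0 gained, and moved the difference of arm medians in the 5 h interaction from -0.04 to -0.05; the labels do not say that the numbers mark a shared batch, 8 of 60 same-numbered pairs of libraries had a correlation of deviations over 0.1 (range -0.293 to 0.17), and 3 of 24 libraries correlated best with their own number. DESeq2 lost 1 and gained 11 of 351 values.

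Fitting only the groups compared gave 17 instead of 27 members called for LPS at 1 h in the Nur77 line. It gave 17 instead of 7 for the interaction at 5 h, and DESeq2 gave 6 instead of 3 for the interaction at 1 h. The cause was not tested. The shares of all genes called in these fits are not given here, so the shifts may not be particular to the members. With each library left out in turn, the members called ranged from 24 to 32, 24 to 30 and 23 to 31 between the lines at 0, 1 and 5 h. The highest count at each time came without replicate 2 of the Nur77 line at 1 h. In that fit 44.5%, 50.9% and 51.3% of all genes were called, against 39.8%, 51.2% and 46.4% with all libraries. For LPS they ranged from 9 to 16 and 23 to 30 at 1 and 5 h in the GFP line and from 24 to 29 and 23 to 27 in the Nur77 line. For the interaction they ranged from 2 to 13 at 1 h and from 5 to 12 at 5 h. The count of 12 came without replicate 2 of the Nur77 line at 1 h, with 13.6% of all genes called against 7.94%. For the other libraries left out the share of all genes called is not given here. The chaperone arm median minus the Atf4 arm median ranged from 0.04 to 0.10, -0.07 to 0.02 and 0.13 to 0.18 between the lines at 0, 1 and 5 h. It ranged from -0.32 to -0.29 and -0.93 to -0.77 for LPS at 1 and 5 h in the GFP line, from -0.59 to -0.42 and -1.08 to -1.0 in the Nur77 line, and from -0.17 to -0.03 and -0.09 to 0.01 for the interaction at 1 and 5 h. Trib3 between the lines at 1 h was 0.07 with all libraries and lay between -0.24, without replicate 2 of the Nur77 line, and 0.23, without its replicate 3. All 39 tested members had group means of at least 12.2 CPM; whether depth limited those not called was not tested, and Derl3 could not be tested at this depth.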

Other observations

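Of 30 genes that carry new proteins into the ER and begin their processing, 14 were higher, 1 lower and 15 not called in the Nur77 line at 0 h (median log2 difference 0.12), 19 higher and 0 lower at 1 h (0.17) and 18 and 0 at 5 h (0.27). The shares called were 50%, 63.3% and 60%, against 39.8%, 51.2% and 46.4% of all genes. Without replicate 2 of the Nur77 line at 1 h the 1 h count was 16 and 0. Serp1, a protein of the translocation channel, was higher by 0.55, 0.72 (0.65 without that library) and 1.06 at 0, 1 and 5 h, and Ssr1, a subunit of the translocon-associated complex, by 0.50, 0.55 (0.56) and 0.60. Srp14, of the signal recognition particle, was lower by -0.29 at 0 h. With LPS 1 of the 30 rose and 0 fell at 1 h in the GFP line, and 11 rose and 1 fell at 5 h, 40% against 62.6% of all genes. In the Nur77 line 10 rose and 2 fell at 1 h (4 and 1 without that library), and 19 rose and 2 fell at 5 h, 70% against 66.6%. Srpr, the receptor of the signal recognition particle, rose at 5 h by 0.52 in the GFP line and 0.66 in the Nur77 line.

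Of 18 further genes of the eIF2 machinery, 0 were higher and 3 lower in the Nur77 line at 0 h. At 1 h 4 were higher and 8 lower (3 and 9 without that library), and at 5 h 4 and 4. The shares called were 16.7%, 66.7% and 44.4%, against 39.8%, 51.2% and 46.4% of all genes. Eif2b2, a subunit of the exchange factor of eIF2, was lower by -0.69, -0.58 (-0.62) and -0.67 at these times. It lies on chromosome 12, where all tested genes had a median of -0.41 at 0 h. The part of that chromosome in its values was not tested. At 5 h of LPS 6 rose and 5 fell in the GFP line and 7 rose and 6 fell in the Nur77 line. These were 61.1% and 72.2%, against 62.6% and 66.6% of all genes. Eif2ak2, the eIF2 kinase that senses double-stranded RNA and is induced by interferon, rose by 1.27 and 1.95, and Nck1, an adaptor that binds the phosphatase side of the pathway, by 1.53 and 0.97. Of 24 further factors of the unfolded protein response and its cell death branch, 12 rose and 4 fell at 5 h in the GFP line and 10 rose and 3 fell in the Nur77 line, 66.7% and 54.2%, against 62.6% and 66.6% of all genes. Bcl2l11, which encodes the death factor Bim, rose at 1 h by 2.25 in the GFP line and 3.00 in the Nur77 line (3.23 without that library), and Traf2, an adaptor of Ire1 alpha, by 0.97 at 5 h in the GFP line.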
